A study of Mus musculus with 16 samples.

Results

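The DNA repair and checkpoint genes described here are 35 mouse genes, chosen by name from the 46078 genes of the count table. They comprise 13 genes of homologous recombination, 11 genes of the Fanconi anaemia pathway, 6 Xrcc genes, 4 checkpoint kinases and the mismatch repair gene Msh6. Gene symbols in the table identified 34 of them, and Fanca was found by its gene ID because its row carries no symbol. The cells were engineered juxtaglomerular (JG) cells of the mouse, which carry YFP driven by the renin promoter in every group. They received miR-106b or a non-mammalian microRNA precursor as control, and RNA was prepared 48 h later from 4 replicate cultures for each of 4 groups. Both polyA groups were made from polyadenylated RNA of cells harvested directly. Both Ago2-IP groups came from other cultures, which were trypsinized and lysed before Argonaute 2 (Ago2), the protein that holds microRNAs and the messages bound to them, was immunoprecipitated. The 16 libraries hold 2579086 to 9459585 counts on genes. Of the 35 genes, 33 reached 1 CPM (counts scaled to a common library total) in at least 3 of the 4 libraries of some group and were tested. Rad51b and Fancb did not, with at most 3 and 6 counts in any polyA control library.

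A break in both DNA strands can be repaired by homologous recombination, which copies the sister chromatid, or by end joining, which ligates the ends directly. Brca1 and Brca2 act early in recombination at the break, and Fanconi anaemia proteins unhook crosslinks between strands and hand the resulting break to recombination. Atm and Atr are the kinases that sense breaks and stalled replication forks, and Chek1 and Chek2 are the kinases they activate to hold the cell cycle. Recombination and Fanconi genes are known to be expressed most in dividing cells, and many are activated by E2F transcription factors at the start of DNA replication. Xrcc genes are named for X-ray sensitivity of mutant cells and not for a shared pathway. Xrcc1 is a scaffold of single-strand break repair, Xrcc4, Xrcc5 and Xrcc6 serve end joining, and Xrcc2 and Xrcc3 act in recombination.

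The libraries did not match the marker genes of juxtaglomerular cells in full. Ren1, which encodes renin, had 0 counts in all 16 libraries, while 25 of 25 cardiac muscle markers were detected. Their summed level, in CPM of the library total, was 27140 to 38130 in polyA control, 52350 to 89800 in polyA miR-106b, 120900 to 129400 in Ago2-IP control and 117000 to 128300 in Ago2-IP miR-106b libraries. In polyA RNA, 23 of 24 cardiac markers tested and 14 of 15 endothelial and blood markers were higher with miR-106b, and all 20 markers of proliferating cells were lower (adjusted p under 0.05, edgeR). Of other lists, 7 of 13 juxtaglomerular and mural markers were higher and 2 lower, 8 of 10 fibroblast markers were higher and 1 lower, and 2 of 3 kidney epithelium markers tested were lower. Because these are bulk libraries, fewer cells of a type and less RNA per cell cannot be told apart.

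The microRNA is shown first because its seed, bases 2 to 8 from the 5′ end, sets which messages it can pair with. The mature sequence, from RefSeq (GRCm38.p6, chromosome 5 from 138165787 to 138165807, minus strand), is printed 5′ to 3′ with the seed in capitals.
mmu-miR-106b-5p: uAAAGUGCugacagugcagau

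Matches to this seed were searched in the longest 3′UTR of each gene in GENCODE release M21 (GRCm38), as an 8mer, a 7mer pairing with bases 2 to 8 (7mer-m8) or a 7mer pairing with bases 2 to 7 followed by A (7mer-A1). Such a match was held by 8 of the repair genes, 10 matches in all. The 2 matches of 8 bases, in Rad51c and Chek2, and the matches of Fanci, Fanca and Brip1, whose Ago2:polyA ratio rose with miR-106b, are printed on the message strand with the match in capitals.
Rad51c, 8mer, chr11:87378750-87378757, minus strand: tgcatgtcagGCACTTTAcccatggagc
Chek2, 8mer, chr5:110873917-110873924, plus strand: ttgatgacctGCACTTTAgatttctttc
Fanci, 7mer-m8, chr7:79450231-79450237, plus strand: acataagaatGCACTTTggcttataca
Fanca, 7mer-A1, chr8:123302221-123302227, minus strand: tccagagcatCACTTTAtcctctgagg
Brip1, 7mer-A1, chr11:86060781-86060787, minus strand: aatctagccaCACTTTAgccatatgtc
Brip1, 7mer-A1, chr11:86060408-86060414, minus strand: ctaataatttCACTTTActgtcctcat
The match of Fanca lies 33921 bases before the 3′ end of the gene, and that of Rad54b 31827 bases before it, in the 3′UTR of a transcript that ends early. The other matches were in Rad51c (a second one), Rad54b, Fancg and Fancd2. A match of any of the 3 kinds was present in 22.9% of the 35 genes and in 23.0% of the 13234 tested genes with a 3′UTR. An 8mer or 7mer-m8 match was present in 11.4% of the repair genes (Rad51c, Fancg, Fanci and Chek2) and in 15.3% of all. These matches are letters in a 3′UTR and not measured binding sites, and the shares in the repair genes were no higher than those in all genes.

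Of the 33 repair genes tested in polyA RNA, 21 fell with miR-106b and none rose (adjusted p under 0.05, edgeR's quasi-likelihood F test with Benjamini-Hochberg adjustment over all genes), where 21.5% of all 14897 genes tested fell and 19.0% rose. The count was 13 without polyA control replicate 1, where 12.3% of all genes fell, and 8 of 18 among genes with at least 10 counts in every library, where 27.7% did. With the cardiac marker level as a covariate it was 0 of 33, as it was 0 over all genes. In the same libraries 20 of 20 markers of proliferating cells were lower and 23 of 24 cardiac markers were higher. No repair gene had an unadjusted p under 0.05 in the upward direction. The log2 fold change was negative for 31 of 33 genes, with a median of -0.92 and a range from -2.31 to 0.42, against a median of -0.05 over all genes tested. In 22 of the 33 genes, every miR-106b library lay below every control library, as in 21.6% of the genes tested. Palb2 and Fanci reached the filter through the polyA control libraries alone, so that they could only be tested if they were high there. As measured by summed level, the 35 genes made up 459 to 549 CPM of the polyA control libraries and 272 to 366 CPM of the polyA miR-106b libraries.

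**Figure D1:**
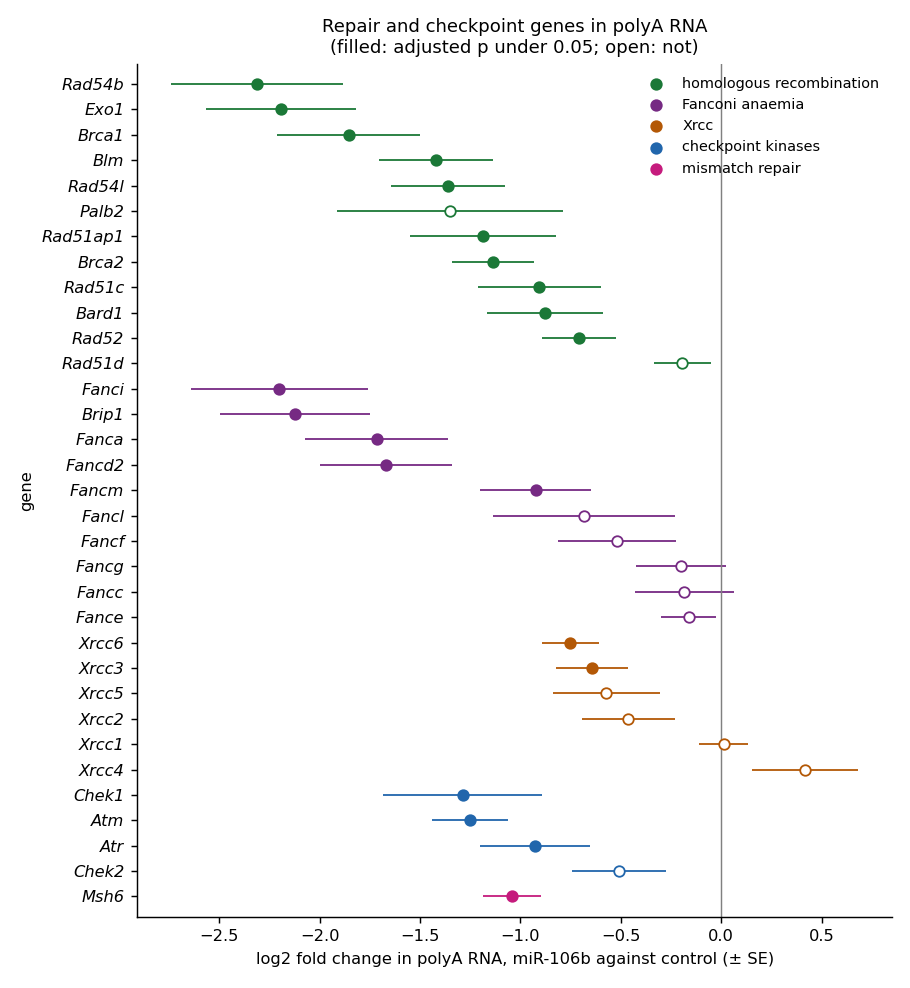
Log2 fold change in polyA RNA (x axis, miR-106b against control, bars ± SE from edgeR's quasi-likelihood fit, 4 libraries a group) of the 33 genes tested (y axis), grouped by role and ordered within each role. Filled points have an adjusted p under 0.05. Of 33 points, 31 lie left of 0, with Rad54b farthest at -2.31, and Xrcc4 lies farthest right at 0.42.

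Among recombination genes, 10 of 12 tested fell (83.3%, against 21.5% of all genes), with a median log2 fold change of -1.27. Brca1 (ENSMUSG00000017146, chromosome 11 from 101488763 to 101551955) was at 21.6, 22.6, 18.9 and 13.4 normalized CPM in polyA control replicates 1 to 4 and at 2.68, 5.34, 10.7 and 2.22 with miR-106b. Every miR-106b library lay under the lowest control library, and replicate 3 was the highest of the miR-106b libraries. The log2 fold change was -1.86 (SE 0.36, adjusted p = 0.00172). Brca2 (chromosome 5 from 150522629 to 150570329), a large protein of recombination that binds single-stranded DNA, was at 21.5, 22.4, 17.8 and 13.6 CPM in control and at 7.38, 8.81, 10.7 and 7.4 CPM with miR-106b. Its groups did not overlap either, and its log2 fold change of -1.14 (SE 0.21, adjusted p = 0.00118) was smaller than that of Brca1. Of the partners of these proteins, Bard1, which dimerizes with Brca1, fell by 0.88 on the log2 scale. Its call was kept in 3 of the 8 fits that left out 1 library, and its log2 fold change was -0.51 without miR-106b replicate 1. Palb2, which bridges Brca1 and Brca2, had a log2 fold change of -1.35 that did not pass (SE 0.56, adjusted p = 0.0721), with 0 to 13 counts in the miR-106b libraries. It passed without miR-106b replicate 3 (log2 fold change -2.44, adjusted p = 0.00476, edgeR).

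The enzymes that process broken ends and joint molecules had some of the largest changes. Exo1, a nuclease that resects DNA ends, was at 9.94, 17.0, 13.2 and 10.1 CPM in polyA control and at 1.12, 4.01, 4.68 and 1.11 CPM with miR-106b. Its 2 lowest libraries, replicates 1 and 4 of the miR-106b group, hold 1.12 and 1.11 CPM, and the groups did not overlap. The log2 difference of Exo1 was -2.19 (SE 0.37, adjusted p = 0.000898). Blm, the Bloom syndrome helicase, was at 5.84, 4.82, 6.73 and 5.76 CPM in control and at 1.79, 1.6, 3.03 and 2.22 CPM with miR-106b. The log2 fold change of Blm was -1.42 (SE 0.28, adjusted p = 0.00196), with no overlap between groups. Rad54l, a DNA translocase of recombination, was at 9.15, 11.6, 8.23 and 8.90 CPM in control and at 2.68, 4.81, 5.23 and 1.85 CPM with miR-106b. These groups were apart as well, and Rad54l had a log2 difference of -1.36 (SE 0.28, adjusted p = 0.00248).

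The other Rad genes ranged from the largest fall among the 33 genes to almost no difference. Rad54b, a relative of Rad54l, fell by 2.31 on the log2 scale from 4.86 ± 1.33 CPM (SD, n = 4), and its miR-106b libraries hold only 1 to 5 counts each. An overlapping gene, Fsbp, covers 35.8% of the exon bases of Rad54b, so that the reads of both are hard to separate. Rad51ap1, a DNA-binding protein of recombination, fell by 1.18, a call kept in 3 of those 8 fits, and Rad52, which binds single-stranded DNA, fell by 0.71. Rad51c, which also acts in recombination, fell by 0.91 (adjusted p = 0.0313, edgeR). This call was lost in 13 of 15 alternative fits, DESeq2 (adjusted p = 0.0562) and 7 of the 8 that left out 1 library among them. Rad51d was at 21.98 ± 2.996 CPM in control libraries and at 19.2 ± 1.052 CPM in miR-106b libraries (SD, n = 4). Its groups overlapped, at a log2 difference of -0.19 (SE 0.14, adjusted p = 0.306).

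In the Fanconi anaemia pathway, 5 of 10 tested genes fell, with a median log2 fold change of -0.80. Fancd2 and Fanci form the complex that is ubiquitinated at a crosslink, and Brip1 is a helicase that binds Brca1. All 3 fell, by a median of 2.12 on the log2 scale. Of the 7 tested genes of the core complex, which carries out the ubiquitination, 2 fell (Fanca and Fancm), a share of 28.6% that is near the 21.5% of all genes, and their median was -0.52. This division into complexes was made after the values were seen, Fanci reached the filter through polyA control alone, and the difference between the complexes was not tested.

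Fancd2 was at 12.8, 13.7, 11.5 and 10.5 CPM in polyA control and at 1.34, 5.07, 6.33 and 2.59 CPM with miR-106b. The highest miR-106b library, replicate 3, stayed under the lowest control library, and the log2 fold change was -1.67 (SE 0.33, adjusted p = 0.00184). Fanci was at 4.26, 4.92, 7.78 and 6.11 CPM in control and at 1.12, 0.534, 2.75 and 0.370 CPM with miR-106b. No library overlapped between the groups of Fanci, whose miR-106b libraries hold 1 to 10 counts, and the log2 fold change was -2.201 (SE 0.44, adjusted p = 0.00201). Polg overlaps 16% of the exon bases of Fanci. Brip1 was at 9.94, 7.01, 8.23 and 6.46 CPM in control and at 0.671, 1.87, 3.58 and 1.11 CPM with miR-106b. Its groups were also apart, with a log2 difference of -2.12 (SE 0.37, adjusted p = 0.00106).

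Fanca (chromosome 8 from 123268300 to 123318576 in GENCODE), a core complex subunit, was at 43.4, 49.9, 46.4 and 39.6 CPM in polyA control and at 6.93, 15.8, 25.9 and 5.55 CPM with miR-106b. The miR-106b libraries spread by more than the control libraries but stayed below all of them, and the log2 difference was -1.72 (SE 0.36, adjusted p = 0.00391). Fancm, the helicase that anchors the core complex, fell by 0.92 (adjusted p = 0.0178). The other 5 core subunits tested overlapped between groups and did not pass. Without polyA miR-106b replicate 1, Fancf passed (log2 fold change -0.92, adjusted p = 0.00685, edgeR). Log2 fold changes with all libraries were -0.18 for Fancc, -0.16 for Fance, -0.52 for Fancf, -0.20 for Fancg and -0.68 for Fancl, the ubiquitin ligase. Fance had the highest level per length of all 35 genes in polyA control, at 12.1 RPKM (CPM per kilobase of exon), so that its lack of a call did not come with low counts (99 to 176 in the miR-106b libraries).

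**Figure D2:**
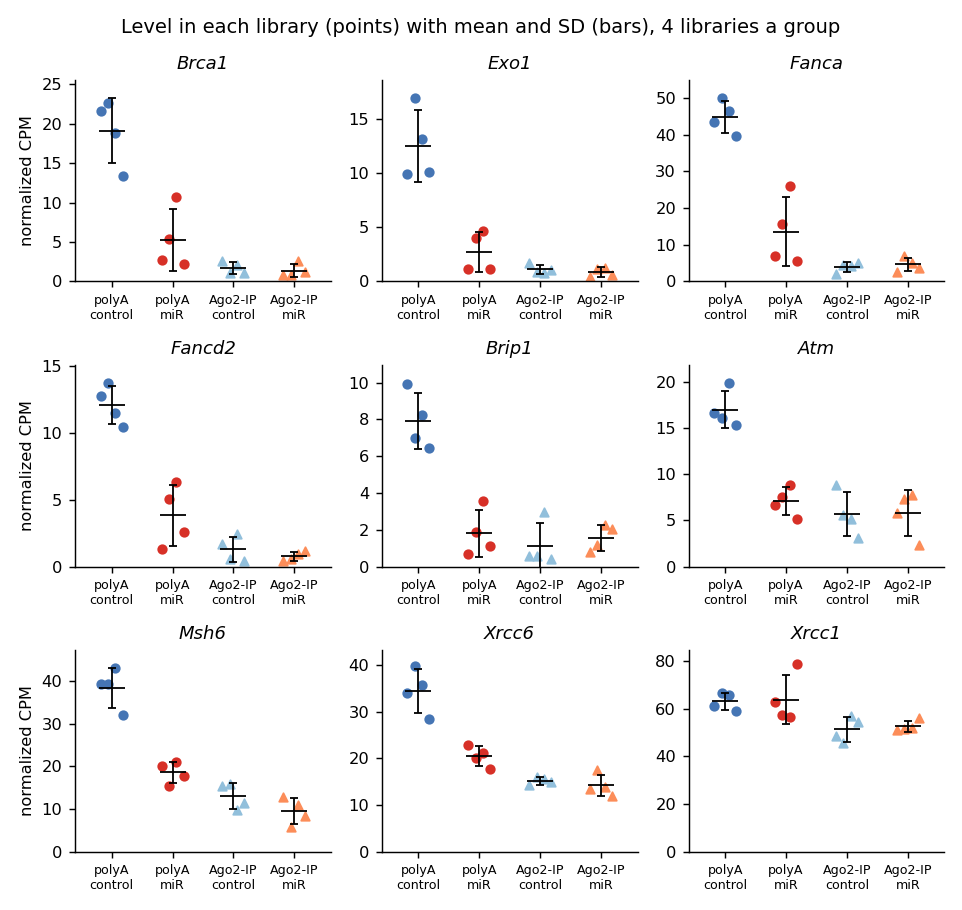
Normalized CPM (y axis, starting at 0 in every panel) of 9 genes in the 4 libraries of each group (points), with the mean and SD (bars). The first 8 genes are lower in every polyA miR-106b library than in any polyA control library, and Xrcc1 overlaps. Ago2-IP levels of control and miR-106b libraries overlap in all 9 panels.

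Of the checkpoint kinases, 3 of 4 fell (75.0%, against 21.5% of all genes), with a median log2 fold change of -1.09. Atm, the kinase that responds to double-strand breaks, was at 16.6, 16.02, 19.9 and 15.4 CPM in polyA control and at 6.71, 7.48, 8.80 and 5.18 CPM with miR-106b. The groups did not overlap, and the log2 fold change of -1.25 (SE 0.19) had the lowest adjusted p among the 33 genes, 0.000683, together with that of Msh6. Atr, the kinase of stalled forks, was at 8.21, 7.96, 6.43 and 6.28 CPM in control and at 2.68, 3.21, 6.05 and 3.33 CPM with miR-106b. Replicate 3 with miR-106b came close to the lowest control library without reaching it, and the log2 difference was -0.93 (SE 0.27, adjusted p = 0.0165). The call of Atr was kept in 5 of the 8 fits that left out 1 library. Chek1, the kinase downstream of Atr, fell by 1.29 with an adjusted p of 0.0204, a call kept in 3 of the 8 fits that left out 1 library (adjusted p up to 0.0901, edgeR). Chek2, the kinase downstream of Atm, was at 8.52, 8.79, 9.88 and 5.41 CPM in control and at 5.82, 6.68, 4.95 and 5.55 CPM with miR-106b. Control replicate 4 lay within the miR-106b values of Chek2, and its log2 fold change of -0.51 (SE 0.23, adjusted p = 0.101) did not pass. Without that library its adjusted p was 0.0299 (edgeR).

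Of the 6 Xrcc genes, 2 fell (33.3%, against 21.5% of all genes), with a median log2 fold change of -0.52. Xrcc6, the Ku70 subunit that binds DNA ends, was at 34.1, 39.8, 35.8 and 28.4 CPM in polyA control and at 22.8, 20.03, 21.2 and 17.8 CPM with miR-106b. Its groups did not overlap, and the log2 fold change was -0.75 (SE 0.14, adjusted p = 0.00149). Its partner Xrcc5 (Ku80) was at 17.5, 18.2, 17.1 and 13.3 CPM in control and at 18.6, 9.35, 9.36 and 5.92 CPM with miR-106b. Replicate 1 with miR-106b was above every control library, and the log2 fold change of Xrcc5 (-0.57, SE 0.27, adjusted p = 0.103) did not pass. Without that library the log2 fold change of Xrcc5 was -0.90 (adjusted p = 0.00395, edgeR). Xrcc4, the partner of DNA ligase IV, was at 5.52, 5.03, 4.64 and 6.28 CPM in control and at 5.37, 5.34, 11.0 and 7.03 CPM with miR-106b. It overlapped between groups and had the highest log2 fold change of the 33 genes, 0.42 (SE 0.26, adjusted p = 0.230).

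Of the Xrcc genes that act in recombination, Xrcc3 fell and Xrcc2 did not pass. Xrcc3 was at 32.2, 27.2, 25.1 and 34.4 CPM in polyA control and at 15.0, 20.6, 25.0 and 15.2 CPM with miR-106b. Replicates 3 of both groups nearly met, and the log2 fold change was -0.64 (SE 0.18, adjusted p = 0.0130). Xrcc2 was at 6, 5.34, 5.09 and 4.54 CPM in control and at 3.35, 3.74, 3.85 and 4.44 CPM with miR-106b, at a log2 difference of -0.46 (SE 0.23, adjusted p = 0.132). Its groups did not overlap, though the call was not made. Xrcc1 was the gene that differed least. It was at 60.9, 66.5, 65.7 and 58.8 CPM in control and at 62.6, 57.1, 56.4 and 78.8 CPM with miR-106b, with overlapping groups. Its log2 fold change was 0.01 (SE 0.12, adjusted p = 0.951), at 205 to 280 counts in the miR-106b libraries, and the sign was negative when libraries were scaled by size only (-0.02).

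Msh6, the mismatch repair gene of the set, serves in recognizing mispaired bases. It was at 39.3, 39.2, 43.1 and 31.9 CPM in polyA control and at 20.1, 15.5, 20.9 and 17.8 CPM with miR-106b. The lowest control library was well above the highest miR-106b library, and the log2 fold change was -1.04 (SE 0.14, adjusted p = 0.000683).

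Set side by side, 15 of 22 tested recombination and Fanconi genes fell, with a median log2 fold change of -1.16, and 3 of 7 Xrcc and mismatch repair genes fell, with a median of -0.57. With Xrcc2 and Xrcc3 counted as recombination genes, the counts were 16 of 24 (median -1.03) and 2 of 5 (median -0.57). Restricted to genes whose mean reached 5 CPM in some group, they were 13 of 18 (median -1.16) and 3 of 7. Among genes with at least 10 counts in every library the order of the medians turned, at -0.53 for 9 recombination and Fanconi genes and -0.58 for 7 Xrcc and mismatch repair genes. That filter removes genes whose miR-106b counts are low, Brca1, Exo1, Fancd2, Fanci and Brip1 among them, so that the fall itself decides which genes remain. The share of all genes that fell was 21.5%. The ranges overlapped, from -2.31 to -0.16 in the first group of genes and from -1.04 to 0.42 in the second. The median level of the recombination and Fanconi genes was 3.31 to 3.49 on the log2(CPM + 1) scale in polyA control and 1.77 to 2.61 with miR-106b. That of the Xrcc and mismatch repair genes was 4.71 to 5.05 in polyA control and 4.02 to 4.45 with miR-106b. Within each library the first median minus the second was -1.6, -1.33, -1.38 and -1.57 in polyA control and -2.41, -1.54, -1.85 and -2.25 with miR-106b. The 2 groups of libraries overlapped in this difference, since miR-106b replicate 2 lay above control replicates 1 and 4. Whether the 2 sets of genes changed unequally is described here and was not tested.

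**Figure D3:**
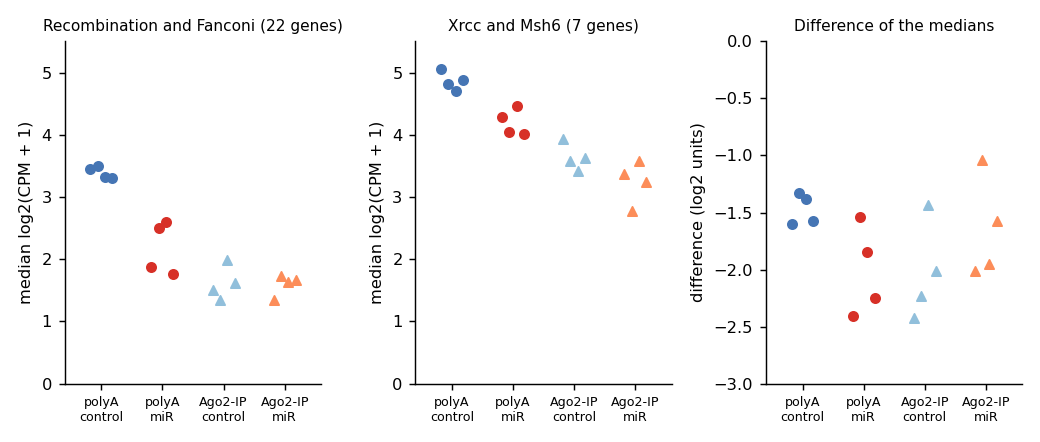
Median log2(CPM + 1) of 22 recombination and Fanconi genes (left) and of 7 Xrcc and mismatch repair genes (middle) in each of the 16 libraries, and the left value minus the middle one (right, log2 units). Both medians are lower in every polyA miR-106b library than in any polyA control library, and the difference in the right panel overlaps between the groups.

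Libraries of the same group took a like order in many of the genes that fell. Over all 33 genes tested, polyA miR-106b replicate 3 was the highest of its group for 22 and the lowest for 5. Among the 21 genes that fell, polyA miR-106b replicate 3 was the highest of its group for 19, and replicates 1 and 4 were each the lowest for 9. In the polyA control group, replicate 4 was the lowest for 13 of the 21 and replicate 2 the highest for 12. The summed level of the 20 markers of proliferating cells had a like order, with 304, 594, 878 and 284 CPM in polyA miR-106b replicates 1 to 4 and 1626, 1847, 1744 and 1268 CPM in polyA control replicates 1 to 4. In Ago2-IP libraries that sum was 201 to 227 CPM in control and 208 to 211 CPM with miR-106b. The cardiac sum was 34790, 27140, 29200 and 38130 CPM in polyA control replicates 1 to 4, the reverse of the order of the proliferation sum. It was 52350, 89800, 65060 and 87750 CPM in polyA miR-106b replicates 1 to 4, where the order was not reversed throughout. These marker lists share libraries, depth and composition with the repair genes, and their part in the fall was not tested by these sums.

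**Figure D4:**
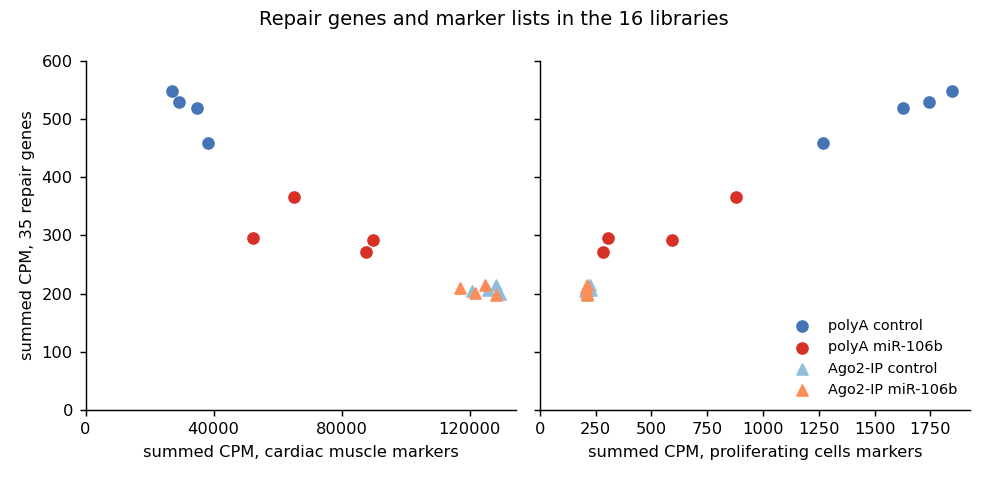
Summed CPM of the 35 repair genes (y axis) against the summed CPM of 25 cardiac muscle markers (left) and of 20 markers of proliferating cells (right) in the 16 libraries, coloured by group. The polyA miR-106b libraries lie between the polyA control and the Ago2-IP libraries on all 3 measures, and the Ago2-IP groups overlap.

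With the log2 summed level of the cardiac markers of each library added to the fit as a covariate, 0 of the 33 repair genes passed (edgeR), while 5 had an unadjusted p under 0.05 (Rad54b, Fancd2, Brip1, Xrcc3 and Atm). In that fit 0 of all 14897 genes passed and 1116 had an unadjusted p under 0.05. The cardiac level separates the 2 polyA groups without overlap, and the median SE of the 33 genes rose from 0.28 to 0.64 on the log2 scale. The log2 fold change was negative for 26 of the 33 genes (Xrcc1 turned negative), with a median of -0.65. It was -2.33 for Rad54b, -2.42 for Brip1, -1.98 for Fancd2 and -1.26 for Brca1, and it was positive for Palb2, Rad51ap1, Fance, Fancf, Fancl and Xrcc5, as well as for Xrcc4. The effect of miR-106b and the cardiac level cannot be told apart in a design where they change together.

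Repair genes outside the 35 were taken from lists of known pathways, written with earlier results of these data known. Of 92 tested, 45 fell and 2 rose, with a median log2 fold change of -0.55, where 21.5% of all genes fell and 19.0% rose. In the list of other recombination and Fanconi genes, 13 of 25 fell and none rose (median -0.58). Rad18, a ubiquitin ligase of stalled forks, fell by 1.74, Eme1, a subunit of a structure-specific nuclease, by 1.32, Mre11a, the nuclease that opens resection, by 1.20 and its cofactor Rbbp8 by 1.18. Of other checkpoint genes, 11 of 17 fell (median -0.86). These included Cdc25c (fell by 1.99), a phosphatase that drives entry into mitosis, the Chek1 activator Clspn (fell by 1.61) and the Atr activator Topbp1 (fell by 1.24).

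Of 9 other mismatch repair genes, 6 were lower and 1 was higher, with a median of -0.68. Lig1, the ligase of replication, fell by 1.6, Pms2 by 1.19 and the polymerase subunit Pold1 by 0.97. Of other end-joining genes 4 of 9 fell (median -0.41), with Rif1 at -1.09 and Prkdc, the kinase recruited by Ku, at -0.60. Base excision and single-strand break repair, the pathway of Xrcc1, had 7 of 17 lower and 1 higher (median -0.43), led by the glycosylase Neil3 at -1.26. Nucleotide excision repair, which removes bulky lesions, had 4 of 15 lower (median -0.21), a share of 26.7% that is near the 21.5% of all genes. Ddb1 fell there by 0.63 from 765 ± 50.6 CPM to 495 ± 57.7 CPM (SD, n = 4), and Rad23b fell by 0.48. The difference between lists was not tested.

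In Ago2-IP RNA, none of the 33 repair genes passed in edgeR's test between miR-106b and control, as 0.0% of all genes tested did. One of the 33, Msh6, had an unadjusted p under 0.05, and 826 of 14897 genes did. DESeq2 called 2 genes in all, and none of the 33. The median log2 fold change was -0.08, from -1.09 for Fancl to 0.58 for Palb2. Msh6 was at 15.4, 15.9, 9.68 and 11.4 CPM in Ago2-IP control and at 12.8, 5.83, 11.0 and 8.44 CPM with miR-106b, with overlapping groups. Its log2 fold change was -0.47 (SE 0.22, unadjusted p = 0.0342, adjusted p = 0.869 in edgeR's test). Brca1 was at 2.56, 1.12, 2.15 and 1.09 CPM in Ago2-IP control and at 0.774, 0.874, 2.58 and 1.16 CPM with miR-106b, which overlapped. Of the 22 recombination and Fanconi genes tested, 9 had an Ago2-IP control mean at or below that of Brca1 and 13 had a higher one, and 15 reached the filter in that group. In these libraries 3 counts, the limit that a count of 0 allows, are worth 0.650 to 1.16 CPM. Xrcc1, with a level that could be measured, was at 48.4, 45.5, 57.0 and 54.2 CPM in Ago2-IP control and at 51.1, 51.3, 51.9 and 55.9 CPM with miR-106b, at a log2 difference of 0.04 (SE 0.097).

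Ago2-IP RNA was also compared with polyA RNA within each transfection. With the control transfection, 27 of 33 were lower in Ago2-IP than in polyA RNA and none was higher, where 34.6% of all genes were lower and 35.1% higher. Palb2, Rad51c, Rad54b, Exo1, Fancd2, Fanci and Chek1 reached the filter in polyA groups only, so that they could only be tested where they were high in polyA RNA. The median log2 difference was -1.30, and it was -1.77 for recombination and Fanconi genes and -0.78 for Xrcc and mismatch repair genes. The lowest were Exo1 (-3.18), Brca1 (-3.18) and Fanca (-3.17), while Xrcc1 (0.01) and Fancc (-0.0015) were near 0. With miR-106b, 8 of 33 were lower and none was higher, where 24.5% of all genes were lower and 21.9% higher, and the median was -0.58. That share of the repair genes, 24.2%, was near that of all genes, and 5 were lower without Ago2-IP miR-106b replicate 4, where 22.4% of all genes were. Scaling by library size alone moved the median of all genes from -0.03 to -0.35 with the control transfection and from -0.04 to -0.19 with miR-106b, and with it 29 and 14 of the repair genes were lower, where 45.5% and 32.4% of all genes were. In the control transfection all 20 markers of proliferating cells were likewise lower in Ago2-IP RNA, and 23 of 24 cardiac markers were higher. No gene of the 33 had an unadjusted p under 0.05 in the upward direction in either comparison. Levels in the RNA kinds are relative within each kind, since different cultures and preparations were used.

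The change of the Ago2:polyA ratio with miR-106b is the readout by which the study asked which messages moved to Ago2. In 1 fit of all 16 libraries, the test asked whether the effect of miR-106b differed between the RNA kinds. The ratio rose for 5 of the 33 repair genes and fell for none, where it rose for 7.61% and fell for 19.7% of all genes tested. Fanci, one of the 5, reached the filter through polyA control alone, the group whose high level raises this ratio. No repair gene had an unadjusted p under 0.05 for a fall, and 9 had one for a rise. The median log2 change was 0.61 against -0.07 over all genes, and 30 of 33 values were positive. Over all genes the split of calls depended on scaling, at 1134 higher and 2937 lower as fitted and 2002 higher and 2304 lower with scaling by library size, with medians of -0.07 and 0.10. Of the repair genes 6 rose under that scaling and none fell.

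The 5 genes were Brip1 (log2 change 2.48, SE 0.76, adjusted p = 0.0167), Fanci (2.60, SE 0.84, adjusted p = 0.0227), Brca2 (1.046, SE 0.35, adjusted p = 0.0299), Fanca (1.82, SE 0.61, adjusted p = 0.0362) and Atm (1.16, SE 0.41, adjusted p = 0.0398), all by edgeR's test. Each of them had a lower level in polyA RNA with miR-106b, and their Ago2-IP levels overlapped between the transfections. Fanca was at 1.99, 4.47, 4.30 and 5.02 CPM in Ago2-IP control and at 2.71, 6.99, 5.16 and 3.79 CPM with miR-106b. Brca2 was at 4.84, 3.63, 3.76 and 4.59 CPM in Ago2-IP control and at 4.64, 6.12, 4.19 and 2.62 CPM with miR-106b. The log2 fold changes in Ago2-IP RNA were 0.24 (SE 0.35) for Fanca and 0.06 (SE 0.34) for Brca2, within 1 SE of 0. For Atm the Ago2-IP libraries held 8.82, 5.59, 5.11 and 3.06 CPM in control and 5.81, 7.29, 7.74 and 2.33 CPM with miR-106b, again with overlap. Brip1 was at 0.569, 0.559, 2.96 and 0.437 CPM in Ago2-IP control and at 0.774, 1.17, 2.26 and 2.04 CPM with miR-106b. Fanci was at 1.14, 0.280, 0.538 and 0.655 CPM in Ago2-IP control and at 1.55, 0.583, 0.322 and 1.46 CPM with miR-106b. The Ago2-IP libraries held 1 to 4 counts of Fanci in control and 1 to 5 with miR-106b. Those of Brip1 were 2 to 11 in control and 2 to 7 with miR-106b. In all 5 genes the polyA level changed by more than the Ago2-IP level. The ratio also rose for 11 of 20 markers of proliferating cells and fell for 23 of 24 cardiac markers, and their part in these calls was not tested. The 5 calls were unequally stable. Leaving out 1 library in turn gave 16 fits. Brip1 kept its call in 15 of them, Fanci in 14, Brca2 and Fanca in 9 each and Atm in 6. The number of repair genes called ranged from 2 to 9, with Brca1, Palb2, Bard1 and Exo1 gained without polyA miR-106b replicate 3. It was 2 without polyA control replicate 2, Ago2-IP control replicate 2 or Ago2-IP miR-106b replicate 1, 2 or 3. In those fits 5.38% to 6.59% of all genes had a higher ratio, and the share of the repair genes was near that. The count was 9 without polyA miR-106b replicate 3, where 10.3% of all genes had a higher ratio.

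**Figure D5:**
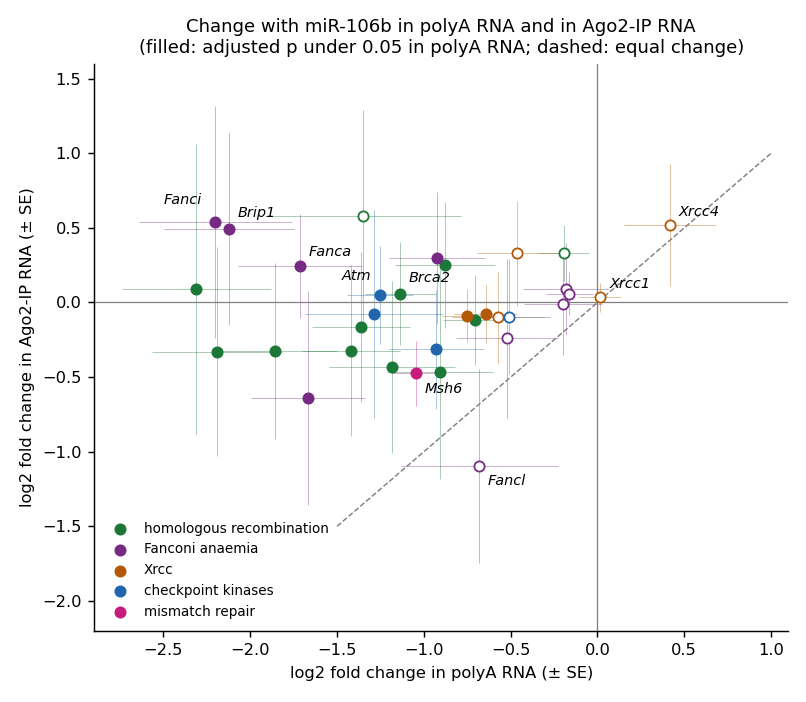
Log2 fold change with miR-106b in polyA RNA (x axis) and in Ago2-IP RNA (y axis) of the 33 genes tested, with SE bars from edgeR's quasi-likelihood fits and filled points for an adjusted p under 0.05 in polyA RNA. Most points lie above the dashed line of equal change, with Fanci at -2.201 and 0.54 among the farthest from it and Xrcc1 near 0 on both axes.

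Of the 5 genes with a higher ratio, Brip1 has 7mer-A1 matches to the seed, Fanci has a 7mer-m8 match, and Brca2 and Atm have none in the 3′UTR searched. The 7mer-A1 match of Fanca lies in its longest 3′UTR, that of a transcript ending early, and its other 3′UTRs were not searched. The 8mer genes Rad51c and Chek2 had ratio changes of 0.28 (SE 0.76) and 0.26 (SE 0.42) that did not pass. The median change in polyA RNA was -1.69 for the 8 repair genes with a match of any kind and -0.88 for the 25 tested without. With the 2 stronger kinds alone it was -0.71 for 4 genes and -0.93 for 29, so that the order turned with the definition of a match. Over all genes tested the medians were -0.12 with and -0.03 without a match of any kind.

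Promoters were examined because the genes moved together in polyA RNA and many of them are known E2F targets. The region from 250 bases before to 50 bases after the start, from RefSeq (GRCm38.p6), was examined for 30 of the 35 genes. Exo1, Rad51d, Rad54b, Fancd2 and Xrcc2 were not analysed here. The E2F words searched, on both strands, were TTTCCCGC, TTTCGCGC, TTTGCCGC and TTTGGCGC. They were present in 7 of the 30 genes (23.3%), namely Brca2, Bard1, Rad51c, Fancg, Xrcc6, Chek2 and Msh6. By promoter, they were present in 2.26% of all 32851 promoters of the table and in 3.6% of those of genes tested. The units differ, since a gene was counted if any of its promoters held a word. Rad51b, Rad51c and Rad54l have alternative promoters. By gene, 460 tested genes held a word and 9980 did not. The promoters of Brca2 and Msh6, which hold a word, and of Brca1, which holds none and fell more than either, are printed 5′ to 3′ on the gene's strand, with the E2F word in capitals.
Brca2, chr5:150522371-150522670, plus strand: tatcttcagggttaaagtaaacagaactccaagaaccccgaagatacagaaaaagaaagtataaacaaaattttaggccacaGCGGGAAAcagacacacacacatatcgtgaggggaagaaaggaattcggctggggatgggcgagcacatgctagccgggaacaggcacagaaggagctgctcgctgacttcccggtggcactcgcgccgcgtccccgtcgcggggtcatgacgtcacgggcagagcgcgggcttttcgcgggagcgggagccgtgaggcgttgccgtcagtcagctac
Msh6, chr17:87974800-87975099, plus strand: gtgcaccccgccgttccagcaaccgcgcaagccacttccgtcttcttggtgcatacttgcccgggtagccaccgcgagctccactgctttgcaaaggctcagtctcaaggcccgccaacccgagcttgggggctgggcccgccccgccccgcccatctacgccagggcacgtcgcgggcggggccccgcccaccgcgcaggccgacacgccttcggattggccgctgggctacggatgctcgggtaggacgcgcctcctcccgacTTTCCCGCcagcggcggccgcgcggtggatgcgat
Brca1, chr11:101551906-101552205, minus strand: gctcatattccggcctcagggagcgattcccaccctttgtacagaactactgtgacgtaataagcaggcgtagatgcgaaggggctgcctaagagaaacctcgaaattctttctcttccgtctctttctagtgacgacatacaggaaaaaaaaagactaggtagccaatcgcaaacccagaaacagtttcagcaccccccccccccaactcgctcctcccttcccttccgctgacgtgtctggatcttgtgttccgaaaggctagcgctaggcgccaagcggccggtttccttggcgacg
The word starts 168 bases before the transcription start in Brca2, where it reads on the other strand, and at base 16 of the transcript in Msh6. Of the 7 genes with a word, all tested, 5 fell in polyA RNA, with a median log2 fold change of -0.88, and of the 21 tested without a word 13 fell, with a median of -0.93. Over all tested genes of the promoter table, 35.2% with a word and 22.5% without fell. CCAAT, on both strands, was present in 66.7% of the 30 genes and in 37.4% of all promoters. The cell cycle word TTTGAA was present in 6.67% of the 30 genes, in 17.9% of all promoters and in 11.9% of those of genes tested. A word found is a description of the letters, and a promoter without one may still bind the factor.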

How the data were processed

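Polyadenylated RNA and RNA bound to Ago2 were sequenced from 4 replicate cultures per group, 16 libraries in all, with single-end libraries that do not keep strand. The authors removed ribosomal reads, aligned the rest to GRCm38 and counted them per gene, and deposited raw counts, with Bowtie2, TopHat2 2.0.10 and HTSeq among the tools in the submitters' processing notes. Reads in exons shared by genes on opposite strands can therefore not be told apart, and how such reads were counted was not examined. Of the 35 genes, 7 share over 10% of their exon bases with another.

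Here the deposited counts were tested with edgeR 4.0.16 in R 4.3.3 (quasi-likelihood F test, TMM, Benjamini-Hochberg threshold 0.05 over all 14897 genes with at least 1 CPM in at least 3 libraries of a group). PolyA and Ago2-IP libraries were each fitted alone, and the ratio, as an interaction, and Ago2-IP against polyA RNA over all 16. The SE of a log2 fold change was derived from the F statistic. Normalized CPM were scaled by TMM within each RNA kind, and summed levels by library total. DESeq2 1.42.0, other scalings and filters, a replicate block, a cardiac covariate and leaving out each library were the alternatives. The tests were checked on simulated counts in which only genes with many counts were changed, which does not cover changes at low counts. Sequences are from RefSeq (GRCm38.p6) and 3′UTRs and overlaps from GENCODE M21. Values of every library are given for the 4 genes of each role with the largest absolute log2 fold change in polyA RNA among those of at least 5 CPM in a group, for those opposite in direction to their role, and for those whose ratio passed. The repair genes and all lists were chosen with earlier results of these data known.

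Library totals of 2579086 to 9459585 counts set the precision. A count of 0 allows up to 3 counts, or 0.317 to 1.16 CPM, and this covers counting error only.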

Additional observations from a re-analysis of the deposited data

Results flagged for a closer look

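Among 76 groups of 4 libraries examined for a library far from the others, of which chance flags about 1 in 20, 2 stood out. Brip1 was at 2.96 normalized CPM in Ago2-IP control replicate 3, where the nearest library was at 0.569. Xrcc1 was at 55.9 normalized CPM in Ago2-IP miR-106b replicate 4, where the nearest was at 51.9.

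The effect of miR-106b differed between polyA and Ago2-IP RNA for 5 genes by the interaction test of edgeR. The log2 change of the Ago2:polyA ratio was 1.046 for Brca2 (adjusted p = 0.0299), 1.82 for Fanca (adjusted p = 0.0362), 2.60 for Fanci (adjusted p = 0.0227), 2.48 for Brip1 (adjusted p = 0.0167) and 1.16 for Atm (adjusted p = 0.0398).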

How the results depend on the processing

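In polyA RNA 20 to 22 repair genes were lower under DESeq2, its size factors, all 16 libraries in 1 fit, scaling by library size and no filter. In those fits 9.53% to 22.5% of all genes were lower. The count of repair genes was 8 of 18 when at least 10 counts were required in every library, where 27.7% of all genes were lower. That filter also left 9 recombination and Fanconi genes with a median of -0.53 against -0.58 for 7 Xrcc and mismatch repair genes. With the cardiac covariate the count was 0, as it was over all genes. That covariate gave recombination and Fanconi genes a median of -0.98 and Xrcc and mismatch repair genes one of -0.16, and turned the sign of Palb2 (0.52), Rad51ap1 (0.046), Fance (0.20), Fancf (0.70), Fancl (0.52), Xrcc5 (0.81) and Xrcc1 (-0.022). Scaling by library size turned Xrcc1 (-0.016). Leaving out 1 library gave 13 (without polyA control replicate 1) to 22 lower repair genes, where 11.0% to 22.1% of all genes were lower. The log2 fold change in these fits was -0.33 to 0.0014 for Fancc and -0.10 to 0.12 for Xrcc1. Called in all 8 of these fits were Brca1, Brca2, Rad54l, Rad54b, Blm, Exo1, Fanca, Fancd2, Fanci, Brip1, Xrcc6, Atm and Msh6. Bard1, Rad51c, Rad51ap1, Rad52, Fancm, Xrcc3, Atr and Chek1 lost the call in at least 1, Rad51c in 7. Palb2, Fancf, Xrcc5 and Chek2 gained it in 1.

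The count of repair genes with a higher ratio was 5 to 6 under the other scalings and tools, where 8.93% to 13.4% of all genes had one. It was 1 of 9 with at least 10 counts in every library, where 12.7% of all genes had one. The recombination and Fanconi median was 0.29 under that filter. The count was 2 to 9 with 1 library left out, where 5.38% to 10.3% of all genes had a higher ratio. Ago2-IP against polyA RNA with miR-106b gave 14 lower genes with scaling by library size and 5 to 11 with 1 library left out (5 without Ago2-IP miR-106b replicate 4). Over all genes 32.4% were lower with that scaling and 21.5% to 25.3% with 1 library left out. The cause of these shifts was not tested, except that the strict filter tests fewer genes. Over all genes, the polyA fit called 2836 higher and 3198 lower, and 3829 and 2408 with all 16 libraries in 1 fit, while the ratio gave 1938 higher and 2364 lower with TMM within each RNA kind and 1732 and 2178 without a filter. Replicate numbers are not known to pair the cultures. Correlations ran from -0.42 to 0.259 for same-numbered libraries and from -0.262 to 0.368 for others, which cannot decide it. A fit with the replicate block called 21 lower genes in polyA RNA, with Rad51c lost (adjusted p = 0.0606, edgeR) and Xrcc5 gained (adjusted p = 0.0417), and 5 higher ratios. With that block 19.7% of all genes were lower in polyA RNA and 7.46% had a higher ratio.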
